A study of Homo sapiens with 16 samples.

Results

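The arrays carried 850 probes for 454 genes whose symbol is LINC followed by digits, and 413 of these probes, for 262 genes, passed a rule on detection and are described here. A probe passed when, in 1 or more of the 8 conditions, the scanner software had marked it on both arrays as well above background. The members were therefore chosen on measured signal, and counts and medians over them are descriptions. Of the 850 LINC probes, 48.6% passed, against 66.7% of all 50599 gene probes. The 437 LINC probes that did not pass included 179 that lay well above background on no array, and 192 LINC genes had no probe that passed. All 413 members are annotated as long noncoding RNAs in RefSeq.

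LINC symbols are given to long intergenic noncoding RNA genes, most of which lie between protein-coding genes and which usually have no established function at the time of naming. Their transcripts are often spliced and polyadenylated like messenger RNAs, tend to be less abundant, and are often restricted to few cell types. Bortezomib blocks the proteasome, and the resulting protein stress is known to induce chaperones of the heat shock response and genes of endoplasmic reticulum stress.

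RNA was hybridized in a single colour to Agilent SurePrint G3 Human arrays. The parental cells, LP-1, are an established line from human multiple myeloma with a TRAF3 defect, which both derived lines share, as they do a lentiviral vector. LP-1-cIAP2-eGFP cells had been transduced with pIRES2-cIAP2-eGFP, which adds the inhibitor of apoptosis cIAP2, and the control cells (LP-1-eGFP) with pIRES2-eGFP. Each line was sampled without drug and in 10 nM bortezomib after 6 h and 24 h, with 2 biological replicates in each of the 8 conditions. Each arm was thus 1 transduced population of 1 cell line, and 16 arrays limit the precision. Because the samples are bulk RNA, fewer cells with a transcript and less of it per cell cannot be told apart.

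Most plasma cell markers were detected, as the label of a myeloma line implies. TNFRSF17, IRF4, XBP1, CD38, SDC1, MZB1 and JCHAIN, all genes of plasma cells, lay well above background on all 16 arrays and PRDM1 on 15. The B cell genes PAX5 and MS4A1 lay above it on no array and CD22 on 1. The epithelial keratin genes KRT8 and KRT18 were detected on all 16 arrays, the epithelial gene EPCAM on 2, and the stromal genes COL1A1 on 10, DCN on 6 and COL3A1 on none. Of T cell genes CD2 was detected on 15 arrays, CD3D on 12 and CD3E on 10, and of monocyte genes CD14 on 13 and CSF1R on none. The part of these genes in the results was not tested. Between the lines, averaged over treatments and times, the plasma cell genes differed unequally. SLAMF7 was higher in the cIAP2 line by 5.79 on the log2 scale (limma, adjusted p = 2.35e-08) and SDC1 by 1.42 (adjusted p = 5.1e-06), where CD38 differed by -0.55 (adjusted p = 0.00279) and MZB1 by 0.50 (adjusted p = 0.0075). The other 5 lay between -0.10 and 0.05. With bortezomib at 24 h SDC1 fell (-1.80 in the control and -3.11 in LP-1-cIAP2-eGFP), as did CD38 (-1.70 and -2.14), MZB1 (-1.92 and -2.09), XBP1 (-1.72 and -1.20) and TNFRSF17 (-1.47 and -2.16), while SLAMF7 changed by 1.12 and 0.13. The probe of BIRC3, the gene of cIAP2, had a line difference of -1.16 (adjusted p = 7.42e-06). This probe detects endogenous transcripts alone, so it does not check the overexpression. In the response to bortezomib, HSPA1B, a heat shock gene, was higher by 4.12 at 6 h and 5.61 at 24 h in the control, and by 3.42 and 4.87 in LP-1-cIAP2-eGFP.

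One array stood apart before any comparison. Replicate 1 of treated LP-1-cIAP2-eGFP cells (24 h) had a log2 median signal of 3.18, and the other 15 arrays lay between 5.73 and 6.64. On that array 98 of the 413 members (23.7%) were well above background. The share on the other arrays ran from 47.2%, in replicate 1 of treated LP-1-cIAP2-eGFP cells (6 h), to 94.4%, in replicate 2 of untreated control cells at 6 h. The difference between the replicates of the bortezomib 24 h condition in LP-1-cIAP2-eGFP had an SD of 1.48 across all probes, against 0.495 to 0.773 in the other conditions. Every value from this condition rests on that array and 1 other.

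**Figure D1:**
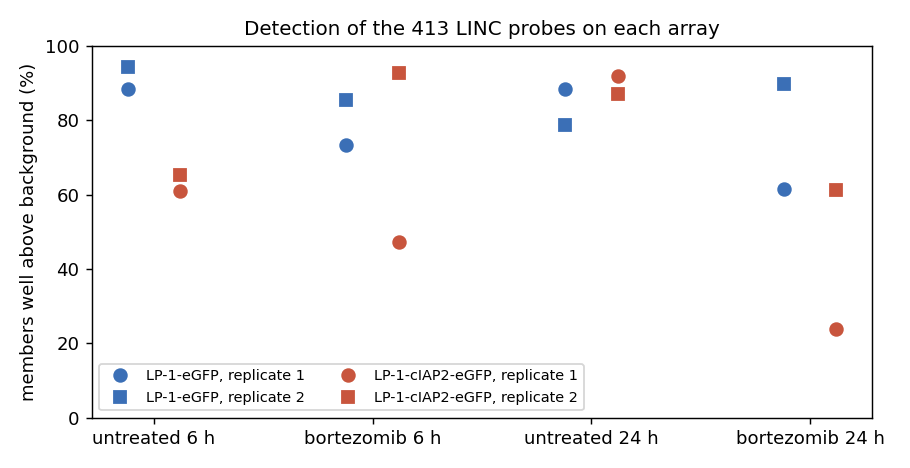
Percentage of the 413 LINC probes well above background on each of the 16 arrays, by condition, line (colour) and replicate (symbol). The lowest array is replicate 1 of treated LP-1-cIAP2-eGFP cells (24 h), at 23.7%, and the highest is replicate 2 of untreated control cells at 6 h, at 94.4%.

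Members were dim as a group. Their mean log2 signal over the 16 arrays had a median of 5.86 and ran from 3.31 to 16.44, with quartiles of 5.02 and 7.69. The median was 7.51 for all 33731 probes that passed the same rule and 9.22 for protein-coding ones, although the signal of a probe depends on its sequence as well as on the transcript. Members that passed in all 8 conditions numbered 89, and 57 passed in 1 condition only. These are 21.5% and 13.8% of the members, against 44.1% and 8.8% of all probes. Between the lines, 54 members (13.1%) passed only in conditions of the control and 23 (5.57%) only in conditions of LP-1-cIAP2-eGFP, against 9.16% and 3.61% of all probes. Between the treatments, 88 (21.3%) passed only in untreated conditions and 12 (2.91%) only with bortezomib, against 13.8% and 1.72% of all probes. The condition with the most members well above background on both arrays was the untreated control at 6 h, with 358, and the one with the fewest was treated LP-1-cIAP2-eGFP cells (24 h), with 97.

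With each gene ranked by its brightest probe, the 6 brightest were LINC01001, LINC00623, LINC01088, LINC00265, LINC01002 and LINC01089, with mean log2 signals of 16.44, 13.35, 13.03, 12.40, 12.36 and 12.17. LINC01001, LINC01002 and LINC01061 have promoter regions that are partly identical: of the 281 words of 20 bases in a 300-base promoter, LINC01001 shared 60.9% with LINC01002 and 52.7% with LINC01061, and LINC01002 shared 68.3% with LINC01061. Probe and transcript sequences were not compared, so which of these copies a probe measured was not tested. Just inside the rule were a probe of LINC00922 (mean log2 signal 3.31) and one of LINC00692 (3.53), each well above background on 3 arrays. Just outside it were LINC01118 (4.94) and LINC01364 (4.80), which were well above background on 6 and 7 arrays but not on both of any condition.

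The lines were first compared over both treatments and times. As compared to control, LP-1-cIAP2-eGFP cells had less LINC02363 and LINC03062 and more LINC02610. A probe was called when its line difference, averaged over the 4 pairs of conditions, had a limma adjusted p under 0.001 and the untreated lines differed more than 2-fold. By this rule 1 member was called higher and 4 lower, where 0.608% of all 33731 probes were called higher and 1.76% lower. The 5 members are 1.21% of the 413 and belong to 4 genes. The median line difference was 0.01 over members and -0.02 over all probes.

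LINC02363 showed the largest difference of the called members. In control cells its brighter probe had log2 signals of 9.68 and 9.29 untreated at 6 h, 8.67 and 8.52 with bortezomib at 6 h, 10.40 and 8.69 untreated at 24 h, and 7.55 and 7.41 with bortezomib at 24 h. In LP-1-cIAP2-eGFP the 8 arrays lay between 4.07 and 5.57, and 3 of them were well above background, so that the groups did not overlap in any condition. The difference was -4.11 ± 0.27 on the log2 scale (SE, limma, adjusted p = 8.51e-06), and it was -3.93 on slide 1 and -4.27 on slide 2. Slide 1 held both lines only untreated at 6 h and with bortezomib at 24 h, and slide 2 only untreated at 6 h and 24 h. The values of the 2 slides thus compare unlike conditions, here and for the genes below. The size of the difference is not firm, since 5 of the 8 LP-1-cIAP2-eGFP arrays did not measure the probe. In the conditions where neither array did, the signal was at least 19.9-fold lower (untreated, 6 h) and at least 2.60-fold lower (bortezomib, 24 h). The second probe of the gene had signals between 6.70 and 9.04 on the control arrays and between 4.14 and 5.64 on the LP-1-cIAP2-eGFP arrays, where it was well above background on 2. Its difference was -3.41 ± 0.25 (adjusted p = 1.42e-05), and at least 13.5-fold and 1.75-fold in the same conditions. It passed the detection rule through conditions of the control alone, so that its call is no separate support. In the control line LINC02363 was also lower with bortezomib at 24 h, by -2.06 ± 0.54 (adjusted p = 0.0227) at the brighter probe and -2.07 ± 0.49 (adjusted p = 0.0143) at the other. Background correction by normexp moved the line difference of the brighter probe to -2.54.

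LINC03062 was lower in LP-1-cIAP2-eGFP and fell with bortezomib in both lines. Its nearest protein-coding gene is GADD45G, a stress-induced gene of growth arrest. Its promoter is shown here with those of 3 other genes that responded to bortezomib in both lines. Each is the 300 bases from 250 before to 50 after the annotated start, read on the gene's own strand, from RefSeq on GRCh38.p14. Capitals mark a match to 1 of 4 motifs that were searched for.
LINC03062, chr9:89639533-89639832, + strand: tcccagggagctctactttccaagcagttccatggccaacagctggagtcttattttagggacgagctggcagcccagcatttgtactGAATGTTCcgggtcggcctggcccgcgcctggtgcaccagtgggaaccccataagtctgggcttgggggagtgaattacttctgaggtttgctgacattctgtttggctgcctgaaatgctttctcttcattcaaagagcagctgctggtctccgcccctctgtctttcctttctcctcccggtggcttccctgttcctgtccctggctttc
LINC00938, chr12:45727872-45728171, - strand: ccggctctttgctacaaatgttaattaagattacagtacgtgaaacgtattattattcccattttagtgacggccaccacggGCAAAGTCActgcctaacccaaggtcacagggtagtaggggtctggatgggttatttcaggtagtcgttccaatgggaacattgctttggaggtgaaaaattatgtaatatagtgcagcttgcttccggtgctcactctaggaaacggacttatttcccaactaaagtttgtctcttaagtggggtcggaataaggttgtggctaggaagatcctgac
LINC01003, chr7:152463874-152464173, + strand: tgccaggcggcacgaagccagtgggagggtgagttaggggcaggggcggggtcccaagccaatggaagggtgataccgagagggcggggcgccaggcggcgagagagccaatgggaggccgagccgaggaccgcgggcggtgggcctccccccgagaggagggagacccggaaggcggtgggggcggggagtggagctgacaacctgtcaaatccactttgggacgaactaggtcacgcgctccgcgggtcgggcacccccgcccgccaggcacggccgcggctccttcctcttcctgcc
LINC00662, chr19:27793891-27794190, - strand: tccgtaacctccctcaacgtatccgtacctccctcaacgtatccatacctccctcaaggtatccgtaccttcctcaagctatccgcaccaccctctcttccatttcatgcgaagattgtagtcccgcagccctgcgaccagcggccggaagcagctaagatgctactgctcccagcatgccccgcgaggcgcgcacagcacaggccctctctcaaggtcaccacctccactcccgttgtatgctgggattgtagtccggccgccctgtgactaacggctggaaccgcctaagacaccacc

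The motifs, searched on both strands, were GAANNTTC (the paired unit of the heat shock element), TGACNNNGC (the core of the antioxidant response element), TGATGNAA (the core of the CHOP-ATF4 element) and GGGANTTCC (a kappa B type site). In LINC03062 a match to GAANNTTC began at position -162 from the start. In LINC00938 a match to TGACNNNGC on the other strand began at -168. The promoters of LINC01003 and LINC00662 held none of these letters in this window. Nor did those of LINC02610, LINC01512, LINC00597, LINC00881, LINC00515 and LINC00847, which were searched too and are not shown. The reference table had 221 promoters for 199 of the 262 member genes, and 7.24% of them held GAANNTTC, against 6.77% of all 35116 promoters. The shares were 16.7% against 13.3% for TGACNNNGC, 5.43% against 3.62% for TGATGNAA and 0.905% against 1.85% for GGGANTTCC. The median GC content was 51.7% for member promoters and 58.7% for all. These matches are descriptions of letters and not of bound sites.

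In control cells LINC03062 had log2 signals of 8.97 and 9.30 untreated at 6 h, 7.89 and 8.15 with bortezomib at 6 h, 8.81 and 9.54 untreated at 24 h, and 5.79 and 6.36 with bortezomib at 24 h. In LP-1-cIAP2-eGFP the same conditions gave 7.24 and 7.20, 6.04 and 6.10, 7.09 and 7.13, and 2.62 and 3.30. The lines did not overlap within any condition. The line difference was -2.26 ± 0.15 (SE, limma, adjusted p = 8.64e-06), with -2.50 on slide 1 and -1.93 on slide 2. The value on slide 1 includes the readings of 2.62 and 3.30, which were not well above background. Bortezomib at 24 h gave -3.09 ± 0.30 in the control (adjusted p = 0.000112) and -4.15 ± 0.30 in LP-1-cIAP2-eGFP (adjusted p = 1.69e-05). In treated LP-1-cIAP2-eGFP cells at 24 h both arrays were too dim to count as well above background, so that the fall there, from a mean of 7.11 to 2.96, was at least 2.01-fold against the lowest signals those arrays could resolve. Normexp moved the line difference to -1.26 and the change at 24 h in LP-1-cIAP2-eGFP to -1.22, which was -2.84 with arrays scaled to their 75th percentile. At 6 h the changes were -1.11 (adjusted p = 0.111) and -1.15 (adjusted p = 0.132) and did not pass the test.

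LINC02610 was the member that was higher in LP-1-cIAP2-eGFP. Untreated control cells had log2 signals of 11.97 and 11.99 at 6 h and 11.84 and 11.74 at 24 h, and untreated LP-1-cIAP2-eGFP cells had 13.11 and 12.98, and 13.03 and 12.87. With bortezomib the control had 11.39 and 11.20 at 6 h and 11.01 and 10.86 at 24 h, and LP-1-cIAP2-eGFP had 12.31 and 12.18, and 11.68 and 11.87. The lines were apart in every condition and the probe was well above background on all 16 arrays. The difference was 1.00 ± 0.07 (adjusted p = 1.27e-05), with 0.92 on slide 1 and 1.05 on slide 2. Bortezomib at 24 h changed LINC02610 by -0.85 (adjusted p = 0.00214) in the control, which is under 2-fold, and by -1.17 ± 0.14 in the cIAP2 line (adjusted p = 0.00028).

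The last called probe belonged to LINC01119 and is named after its values were seen, because a brighter probe of that gene was not called. The called probe had log2 signals between 6.21 and 7.35 on the control arrays and between 5.37 and 6.35 on the LP-1-cIAP2-eGFP arrays, and differed by -1.10 ± 0.11 (adjusted p = 9.35e-05). The brighter probe differed by -0.14 (adjusted p = 0.531). The calls of LINC02363, LINC03062 and LINC02610 were kept under every alternative in which they were tested, and that of LINC01119 in 19 of 23. It was lost without replicate 2 of untreated control cells at 24 h, where the untreated lines differed by -0.94, with normexp (-0.65), with a block for slide (adjusted p = 0.00171) and when scaled to the 75th percentile (adjusted p = 0.00137).

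**Figure D2:**
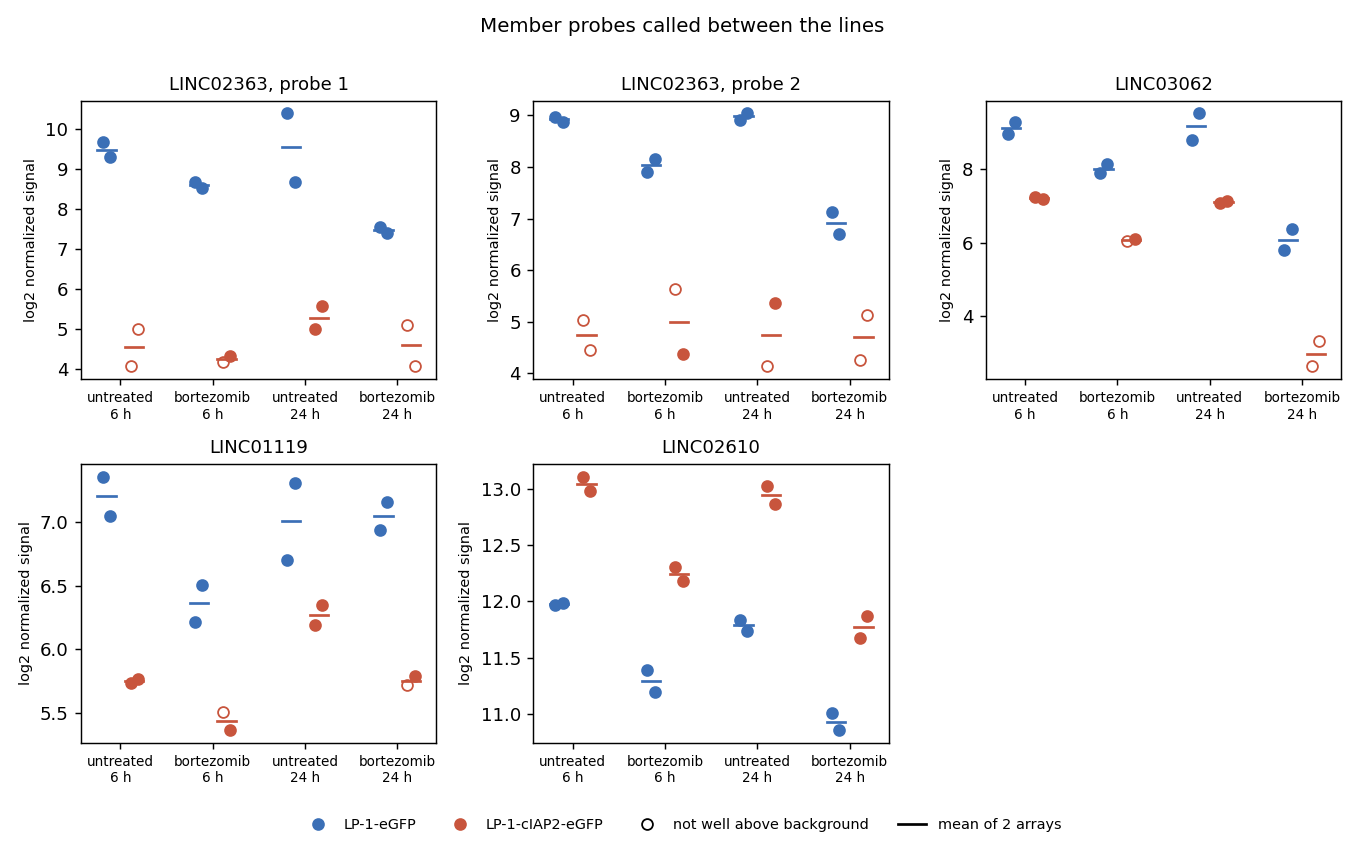
Log2 quantile-normalized signal of the 5 LINC probes called between the lines, on each array of each condition; bars are means of 2 arrays and open circles are arrays not well above background. LINC02363, LINC03062 and LINC01119 lay lower in LP-1-cIAP2-eGFP and LINC02610 higher, with no overlap of the lines within a condition.

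A further 9 member probes passed the adjusted p between the lines but not the 2-fold limit in untreated cells, which makes 14 probes of 8 genes, 6 higher and 8 lower. LINC00467 had 3 such probes, with differences of -0.80, -0.85 and -1.06. LINC01547 differed by -1.01. LINC00944 was higher at 3 probes, by 0.85, 0.85 and 0.92, and LINC00623 at 2, by 0.76 and 0.84. A second probe of LINC01547 differed by -0.30 (adjusted p = 0.114). Of all probes 4.18% passed this adjusted p, against 3.39% of the members.

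Few members separated the lines within single conditions. With a limit of 2-fold and an adjusted p under 0.05, 6 members were called in untreated cells at 6 h (2 higher and 4 lower), where 2.23% of all probes were called. In untreated cells at 24 h there were 5 (1 higher and 4 lower), against 2.05% of all probes. With bortezomib there were 3 at 6 h, all lower, against 2.26% of all probes, and 15 at 24 h (7 higher and 8 lower), against 3.75%. At 6 h both treated arrays of LP-1-cIAP2-eGFP lay on slide 1 and both of the control on slide 2, so that line and slide cannot be told apart in that condition, and with slide as a term over all 16 arrays 1 member was called. The 2 probes of LINC02363 and that of LINC03062 were among the called members in all 4 conditions. With arrays scaled to their 75th percentile the split was 1 higher and 2 lower with bortezomib at 6 h and 6 higher and 4 lower at 24 h. With array weights, which give the weak array's condition little weight, the order of the conditions turned. Then 22 members were called in untreated cells at 6 h, 17 with bortezomib at 6 h and none with bortezomib at 24 h. Shares of all probes under these weights are not given here, so these counts are not read as a result about the members. The counts moved with single arrays. The 6 calls in untreated cells at 6 h became 2 without replicate 1 of untreated LP-1-cIAP2-eGFP cells at 6 h, and the 5 at 24 h became 3 without replicate 1 of those at 24 h. Without either array of treated LP-1-cIAP2-eGFP cells (24 h) they became 12 and 10, and the 3 calls with bortezomib at 6 h became 10. Those 3 became 11 without replicate 2 of treated LP-1-cIAP2-eGFP cells and 1 without replicate 2 of treated control cells at 6 h. The 15 calls with bortezomib at 24 h became 3 and 9 without replicate 1 and replicate 2 of treated control cells. Leaving out replicate 2 of treated LP-1-cIAP2-eGFP cells (24 h) leaves the weak array alone in its condition. The larger count in that fit is not read as a result about the members.

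Few probes were called with bortezomib at 6 h, among the members and over the whole array. In the control it was 0.726% of the members against 1.12% of all probes. In LP-1-cIAP2-eGFP it was 0.484% against 0.744%. LINC01003 and LINC00847 fell in both lines and LINC00662 rose in the control, and no other member passed both limits, 2-fold and an adjusted p under 0.05. In the control 1 member was called higher and 2 lower, where 0.809% of all probes were called higher and 0.314% lower. For LP-1-cIAP2-eGFP none was called higher and 2 lower, against 0.548% and 0.196% of all probes. With arrays scaled to their 75th percentile the split in the control was 1 higher and 1 lower. Array weights raised the counts to 16 and 11, for which no share of all probes is given. The median response was -0.03 in the control and 0.07 in LP-1-cIAP2-eGFP. In limma, 8.47% and 9.44% of the members had an unadjusted p under 0.05, against 11.8% and 10.6% of all probes.

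LINC01003 lies next to KMT2C, which encodes a histone methyltransferase. Its log2 signal fell from 11.74 and 11.79 to 10.51 and 10.51 at 6 h in the control and from 11.64 and 11.53 to 10.52 and 10.46 in LP-1-cIAP2-eGFP. At 24 h it fell from 11.68 and 11.71 to 9.52 and 9.68 in the control, and from 11.53 and 11.46 to 8.19 and 8.74 in LP-1-cIAP2-eGFP. Treated and untreated arrays did not overlap, and the signals at 24 h lay below those at 6 h. The changes at 6 h were -1.25 ± 0.17 (adjusted p = 0.0084) and -1.10 ± 0.17 (adjusted p = 0.0194), of which the latter was not called with normexp (-0.97), without a filter on signal (adjusted p = 0.06) or with the slide block (adjusted p = 0.0648). At 24 h they were -2.10 ± 0.17 (adjusted p = 4.99e-05) and -3.03 ± 0.17 (adjusted p = 6.04e-06). On the 1 slide that held treated and untreated arrays of a line, the changes at 24 h were -2.02 and -3.07.

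LINC00847 overlaps ZFP62, a zinc finger gene. Its log2 signal was 11.73 and 11.74 untreated and 10.43 and 10.59 with bortezomib at 6 h in the control, and 11.88 and 11.96 against 10.64 and 10.66 in LP-1-cIAP2-eGFP. The changes were -1.23 ± 0.21 (adjusted p = 0.0211) and -1.27 ± 0.21 (adjusted p = 0.0238). At 24 h they were -0.72 (adjusted p = 0.0356), which is under 2-fold, and -1.14 (adjusted p = 0.00309). The calls at 6 h were lost in 8 and 12 of 25 alternatives, among them scaling to the 75th percentile, no filter on signal, the slide block and averaged probes. A second probe changed by -1.16 and -1.17 at 6 h and was not called. Unlike LINC01003, its values at 24 h were not below those at 6 h in the control, where the treated arrays read 10.96 and 11.13.

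LINC00662 was the member called higher at 6 h. In the control its log2 signal was 9.32 and 9.17 untreated and 10.66 and 10.27 with bortezomib at 6 h, and 9.42 and 9.15 against 10.36 and 10.70 at 24 h. In LP-1-cIAP2-eGFP it was 9.46 and 9.47 against 10.43 and 10.23 at 6 h, and 9.48 and 9.22 against 10.40 and 10.57 at 24 h. All treated arrays lay above all untreated ones. The changes at 6 h were 1.22 ± 0.19 (adjusted p = 0.0157) in the control and 0.86 ± 0.19 (adjusted p = 0.0797) in LP-1-cIAP2-eGFP, and at 24 h 1.25 (adjusted p = 0.00146) and 1.14 (adjusted p = 0.00194). With array weights the rise at 24 h in LP-1-cIAP2-eGFP was not called (adjusted p = 0.157), and with the slide block the rise at 6 h in the control was not (adjusted p = 0.0532). The calls of these genes at 6 h were sensitive to single arrays: without replicate 2 of the control, untreated or with bortezomib at 6 h, no member was called in the control. With replicate 1 of either left out, 1 was called. Without replicate 1 of LP-1-cIAP2-eGFP, untreated or with bortezomib at 6 h, none was called in that line, and 1 was called without untreated replicate 2 or without any 1 of the 4 control arrays at 6 h. Without either array of treated LP-1-cIAP2-eGFP cells (24 h), 6 members were called in the control and 10 in LP-1-cIAP2-eGFP.

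**Figure D3:**
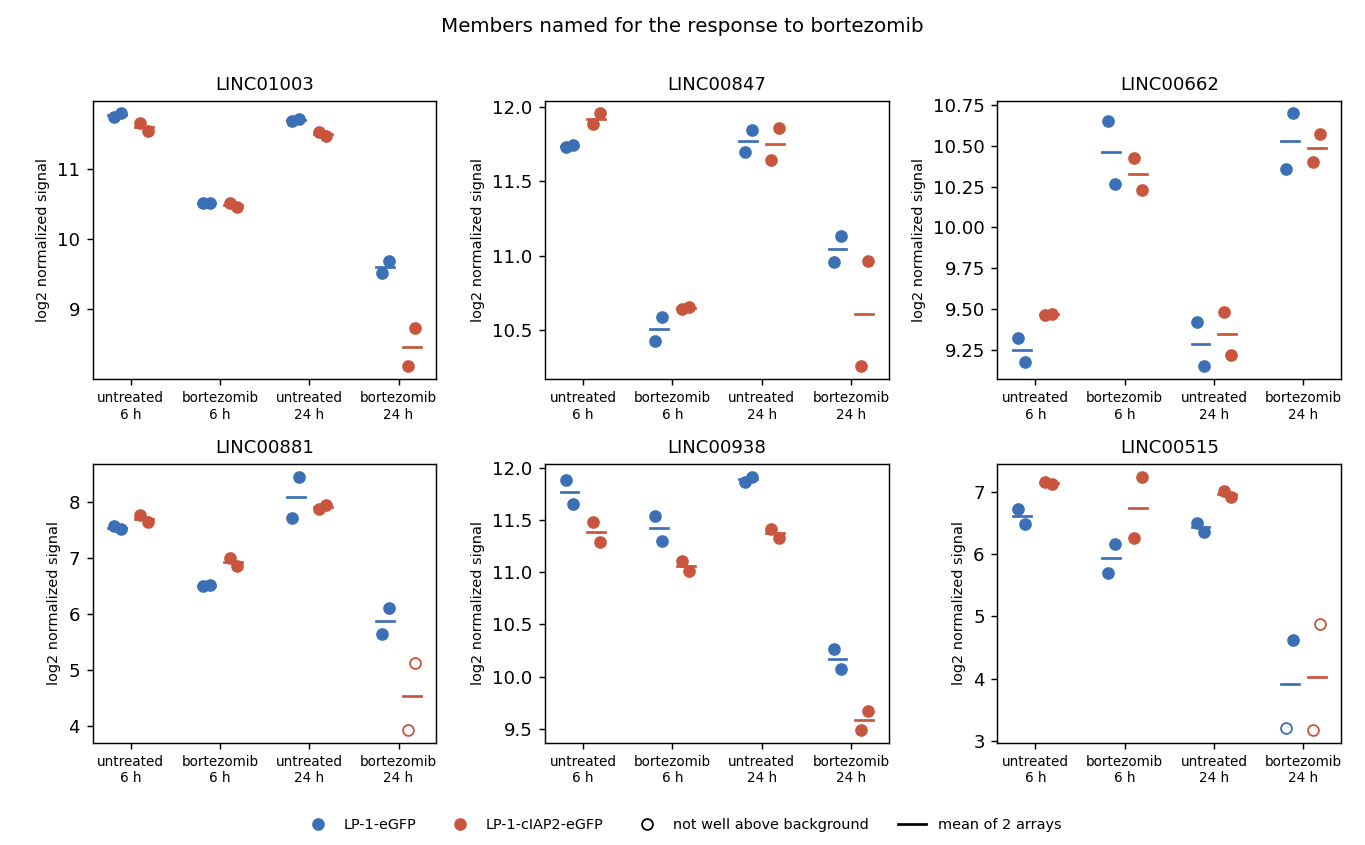
Log2 quantile-normalized signal of 6 LINC genes named for their response to bortezomib, on each array of each condition; bars are means of 2 arrays and open circles are arrays not well above background. LINC01003 and LINC00938 fell at 24 h in both lines, and LINC00662 lay higher on every treated array.

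At 24 h many more members responded. In the control 14 members of 10 genes were called higher and 17 of 14 genes lower. These are 3.39% and 4.12% of the members, where 5.31% of all probes were called higher and 6.67% lower. Among LP-1-cIAP2-eGFP cells 22 members of 16 genes were called higher and 38 of 32 genes lower, or 5.33% and 9.20%, against 6.42% and 12.2% of all probes. The median response was -0.11 and -0.06 over members and -0.03 and -0.16 over all probes. The split in LP-1-cIAP2-eGFP depended on scaling: with arrays scaled to their 75th percentile, 31 members were higher and 24 lower, and the median of all probes was 0.21. Of the 89 members well above background on all 16 arrays, 7 were called higher and 5 lower in the control. In LP-1-cIAP2-eGFP 13 of them were higher and 6 lower. These are 7.87% and 5.62%, and 14.6% and 6.74%, against 8.76% and 8.67%, and 10.7% and 11.7%, of the 14867 probes under the same filter. This filter leaves out members that fell below detection on any treated array, LINC03062 among them. It therefore cannot show whether the split depended on signal.

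The number called in LP-1-cIAP2-eGFP also rested on the weak array. Of the 60 called members, 44 were measured above background on both sides of the comparison, 14 were dim on 1 side and 2 on both. Without replicate 1 of the treated cells 44 were called, 16 higher and 28 lower, of which 27 were among the 60, and 15.3% of all probes were called. Without replicate 2, which leaves the weak array, 173 were called, against 39.6% of all probes. The count was 34 without replicate 1 and 36 without replicate 2 of the untreated cells. With array weights it was 17, with normexp 35 and with probes of a gene averaged 36. In the control the count of 31 became 20 with normexp and 19 with averaged probes, 16 without replicate 1 of the treated cells and 20 without replicate 2 of the untreated ones.

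Both lines called 19 members at 24 h, all in the same direction, 6 higher and 13 lower. This was 61.3% of the members called in the control and 31.7% of those called in LP-1-cIAP2-eGFP, against 73.9% and 47.7% over all probes. Of all probes, 3.54% were called higher in both lines and 5.32% lower. The 12 members called in the control alone all had the same sign in LP-1-cIAP2-eGFP, and 35 of the 41 called in LP-1-cIAP2-eGFP alone had the same sign in the control. Across the 413 members the responses of the lines had a Pearson correlation of 0.43, and 0.59 across all probes tested. For the 89 members well above background on all 16 arrays it was 0.65. Within a line these probes share their arrays and the normalization.

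**Figure D4:**
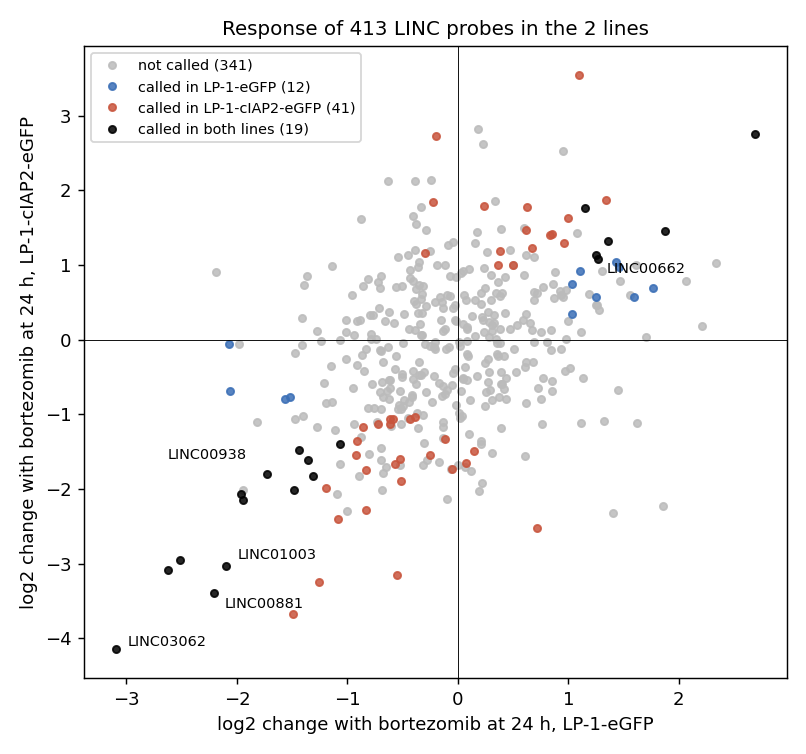
Log2 change with bortezomib at 24 h in LP-1-eGFP (horizontal axis) and LP-1-cIAP2-eGFP (vertical axis) for the 413 LINC probes, coloured by the line in which they were called. The 19 probes called in both lines, 6 higher and 13 lower, lie at the upper right and the lower left.

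Judged by the fitted change at the brightest probe of each gene, the falls shared by both lines were led by LINC03062, LINC00881, LINC01003, LINC00515, LINC01148 and LINC00938. This order is not firm, since treated LP-1-cIAP2-eGFP arrays did not measure LINC03062, LINC00881, LINC00515 or LINC01148 well above background. LINC00881, whose neighbour CCNL1 encodes a cyclin of RNA splicing, had log2 signals of 7.71 and 8.45 untreated and 5.63 and 6.11 with bortezomib in the control, and 7.88 and 7.95 against 3.92 and 5.12 in LP-1-cIAP2-eGFP. The changes were -2.21 ± 0.36 (adjusted p = 0.00187) and -3.39 ± 0.36 (adjusted p = 0.000131). In LP-1-cIAP2-eGFP neither treated array was well above background, and the fall from a mean of 7.91 to 4.52 was at least 3.51-fold. With normexp the changes were -1.41 and -2.04.

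LINC00938 was bright on all arrays and fell by a similar amount in both lines. Its neighbour ARID2 encodes a subunit of a chromatin remodelling complex. The log2 signals of LINC00938 were 11.87 and 11.92 untreated and 10.26 and 10.08 treated in the control, and 11.42 and 11.33 against 9.49 and 9.67 in LP-1-cIAP2-eGFP. The changes were -1.72 ± 0.15 (adjusted p = 7.29e-05) and -1.80 ± 0.15 (adjusted p = 4.44e-05), and -1.82 and -1.84 within the slide that held both conditions. Over the alternatives they ranged from -1.82 to -1.63 in the control and from -1.89 to -1.20 in LP-1-cIAP2-eGFP. At 6 h the change was -0.35 and -0.32 and did not pass the test.

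LINC00515 had log2 signals of 6.50 and 6.36 untreated and 3.21 and 4.62 treated in the control, and 7.02 and 6.92 against 3.17 and 4.87 in LP-1-cIAP2-eGFP. The changes were -2.52 ± 0.58 (adjusted p = 0.0116) and -2.95 ± 0.58 (adjusted p = 0.00412, at least 1.83-fold from a mean of 6.97 to 4.02). Over the alternatives the change in LP-1-cIAP2-eGFP ranged from -3.80 to -1.08. The call in the control was lost with normexp (-0.86) and without untreated replicate 1 (adjusted p = 0.0568), untreated replicate 2 (0.0511) or treated replicate 1 (0.0989), and that in LP-1-cIAP2-eGFP with array weights (0.0947). LINC01148 was dimmer still, with signals of 6.76 and 5.54 against 3.48 and 4.88 in the control and 5.58 and 5.49 against 3.62 and 3.31 in LP-1-cIAP2-eGFP. Its changes were -1.97 ± 0.53 (adjusted p = 0.0246) and -2.07 ± 0.53 (adjusted p = 0.0158). Neither treated array of LP-1-cIAP2-eGFP was well above background, and the untreated signals were too low for a bound, so no fold is given there. Both calls were lost under scaling to the 75th percentile (adjusted p = 0.125 and 0.449) and with normexp, where the changes were -0.49 and -0.17. They were also lost without replicate 1 of either treatment in the control, and without either untreated array of LP-1-cIAP2-eGFP. The call in the control was lost with the slide block (-1.73, adjusted p = 0.0616), and that in LP-1-cIAP2-eGFP with array weights (adjusted p = 0.319). Under every alternative in which they were tested, the falls of LINC03062, LINC00881, LINC01003 and LINC00938 at 24 h kept their calls in both lines.

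The other falls called in both lines belonged to LINC00173 (2 probes), LINC02709, LINC00665, LINC01963, LINC01144 and LINC01547, which are listed after their values were seen. LINC00173 changed by -2.62 and -3.09 at 1 probe and by -1.48 and -2.01 at its brightest, and its remaining probe, at -0.14 and 0.51, was not called. LINC01963 was measured on all arrays and changed by -1.36 in the control and -1.62 in LP-1-cIAP2-eGFP, and LINC01144 by -1.44 and -1.48.

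Called higher in both lines at the same probe were LINC01512, LINC00597, LINC00662 and LINC01347. LINC00265, LINC01002 and LINC01061 also had probes called higher in each line, but no probe called in both. LINC01512 had log2 signals of 4.42 and 4.27 untreated and 7.02 and 7.04 treated in the control, a change of 2.69 ± 0.67 (adjusted p = 0.0175). LINC01512 was well above background on 1 of these 2 untreated arrays, and its change ranged from 1.24 to 2.84 over the alternatives. Its call was lost without any 1 of these 4 arrays, with adjusted p up to 0.0837. In LP-1-cIAP2-eGFP all 4 arrays at 24 h were too dim to count as well above background, so that its call there is not a measured rise and no fold is given. That call was lost with normexp (0.43), with array weights (adjusted p = 0.14) and without untreated replicate 1 (adjusted p = 0.0818). The nearest protein-coding gene is VEGFA, the vascular growth factor.

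LINC00597 had log2 signals of 6.16 and 4.79 untreated and 7.35 and 7.35 treated in the control, and 6.83 and 6.87 against 8.25 and 8.37 in LP-1-cIAP2-eGFP. The changes were 1.87 ± 0.47 (adjusted p = 0.018) and 1.46 ± 0.47 (adjusted p = 0.0427). The call was lost in the control without untreated replicate 2 (1.19, adjusted p = 0.129), treated replicate 1 (adjusted p = 0.0834) or treated replicate 2 (adjusted p = 0.0731). In LP-1-cIAP2-eGFP it was lost in 15 of 24 alternatives. LINC01347 has 7 member probes, of which 3 were called higher in both lines, with changes of 1.15, 1.27 and 1.36 in the control and 1.76, 1.08 and 1.32 in LP-1-cIAP2-eGFP. Its 7 probes ranged from 0.36 to 1.44 in the control and from -0.42 to 1.76 in LP-1-cIAP2-eGFP.

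At their brightest probes, other genes were called higher in 1 line alone. In the control LINC01252 changed by 1.77 (adjusted p = 0.0265) and LINC02878 by 1.25 (adjusted p = 0.0299), against 0.69 and 0.58 in LP-1-cIAP2-eGFP, which did not pass the test. The call of LINC01252 was lost without any 1 of its 4 arrays, with normexp (0.91) and with probes of the gene averaged (1.44, adjusted p = 0.099), and that of LINC02878 in 7 alternatives. The brightest probe of LINC00265 changed by 0.99 in the control and was not called there, although 2 other probes of the gene were. In LP-1-cIAP2-eGFP this brightest probe changed by 1.62 (adjusted p = 0.0129), from 12.20 and 11.87 to 14.33 on the weak array and 12.98 on the other. Without the weak array it was 0.95 (adjusted p = 0.0513), and with normexp 0.91. LINC01816 went from 8.06 and 8.07 to 11.05 on the weak array and 8.65 on the other, with an adjusted p of 0.0436 that was lost in 21 of 25 alternatives. LINC00272 changed by 2.72 (adjusted p = 0.0272), from 4.90 and 4.59 to 6.36 and 8.56, where the lower treated array was not well above background. It was 0.90 with normexp and 1.62 without treated replicate 2, both without a call. The call was also lost with the slide block (2.44, adjusted p = 0.0671), with array weights (adjusted p = 0.348) and without either untreated array. LINC00635 changed by 1.78 (adjusted p = 0.0104) in a fit that lacked 1 control array for this probe. Normexp gave 0.175 (adjusted p = 0.783), and the call was also lost in the authors' table (adjusted p = 0.0703), with array weights (0.232) and without untreated replicate 1 (0.0594). The difference between the lines was not called for any of these genes.

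Of the members called lower in LP-1-cIAP2-eGFP alone, LINC00937 had the largest change and is named after its values were seen. At its brightest probe it went from 9.82 and 9.99 to 4.87 and 7.60, a change of -3.67 ± 0.66 (adjusted p = 0.00258), against -1.49 (adjusted p = 0.155) in the control. A second probe changed by -3.25 (adjusted p = 0.00144). The other 2 probes of the gene, at 0.36 and -0.98, were not called, and the 4.87 was read on the weak array, where the probe was not well above background.

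No member had a difference between the bortezomib responses of the lines that passed an adjusted p under 0.05. This holds for 6 h, where 0.00296% of all probes were called, and for 24 h, where 0.0712% were. In limma 2.91% and 7.99% of the members had an unadjusted p under 0.05, against 2.05% and 8.1% of all probes. The largest fitted differences at 24 h, response in LP-1-cIAP2-eGFP minus that in the control, were -3.24 ± 1.03 for LINC00839 (adjusted p = 0.49), -2.74 for LINC02232 and -2.60 for LINC00852 (adjusted p = 0.408). In the other direction they were 2.92 for LINC00272, 2.75 for LINC00518 and 2.38 for LINC00941. Of these 6 genes LINC00941 alone was well above background on all 8 arrays at 24 h, and its value rests on the weak array, without which it was 0.18. Neither treated LP-1-cIAP2-eGFP array measured LINC00839, LINC00852, LINC02232 or LINC00518, so that the fitted sizes are not firm: the falls of LINC00839 and LINC00852 in that line were at least 1.08-fold and 1.62-fold. LINC00852, for example, read 6.99 and 6.61 untreated and 2.60 and 4.70 treated in LP-1-cIAP2-eGFP, and 6.14 and 6.29 against 5.66 and 5.67 in the control. At 6 h the largest were 5.17 for LINC00996, 3.24 for LINC01343, -3.31 for LINC00862 in a fit that lacked 1 array of treated LP-1-cIAP2-eGFP cells at 6 h, and -3.16 for LINC00840. These sizes are not firm either. LINC00996 fell to 0.28 without the 1 array that read 15.08, LINC01343 was not well above background on the untreated arrays of LP-1-cIAP2-eGFP or the treated arrays of the control, and leaving out single arrays gave from -4.77 to -1.85 for LINC00862 and from -4.17 to -2.15 for LINC00840. When replicate 2 of treated LP-1-cIAP2-eGFP cells at 24 h was left out, members were called at 24 h, with the weak array as the only one of its condition. Those calls are not read as a result about the members.

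Different probes of a gene did not always agree. The 262 genes included 84 with more than 1 member probe, with up to 10 probes for LINC00630. At 24 h, 12 genes with several probes had a called probe in the control, and in 2 of them all probes were called. In LP-1-cIAP2-eGFP there were 23 such genes, and in 1 all probes were called. No gene had probes called in opposite directions. The 7 probes of LINC00265 ranged from 0.42 to 1.59 in the control, with 2 called, and from 0.36 to 3.55 in LP-1-cIAP2-eGFP, with 3 called.

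The share of probes that responded differed between classes. At 24 h 7.51% of members were called in the control and 14.5% in LP-1-cIAP2-eGFP. Antisense genes had 14.6% and 25.5% of 369 probes called, most of them lower (12.2% and 22.2%), and their median responses were -0.26 and -0.58. Of the 57 probes of small nucleolar RNA host genes (SNHG), 17.5% and 49.1% were called, and 24 of them were higher in LP-1-cIAP2-eGFP. Protein-coding probes had 15.1% and 21.8%. The 11730 probes without a symbol, whose median mean signal was 5.81 against 5.86 for the members, had 6.84% and 12.9%. Probes of genes with an older LINC symbol had 7.66% and 24.6% of 248. These classes also differ in signal: among probes detected on all 16 arrays, the shares were 13.5% and 21.3% of the 89 LINC probes, against 17.4% and 22.3% of all 14867 probes. The part of signal in the difference between classes was not tested.

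**Figure D5:**
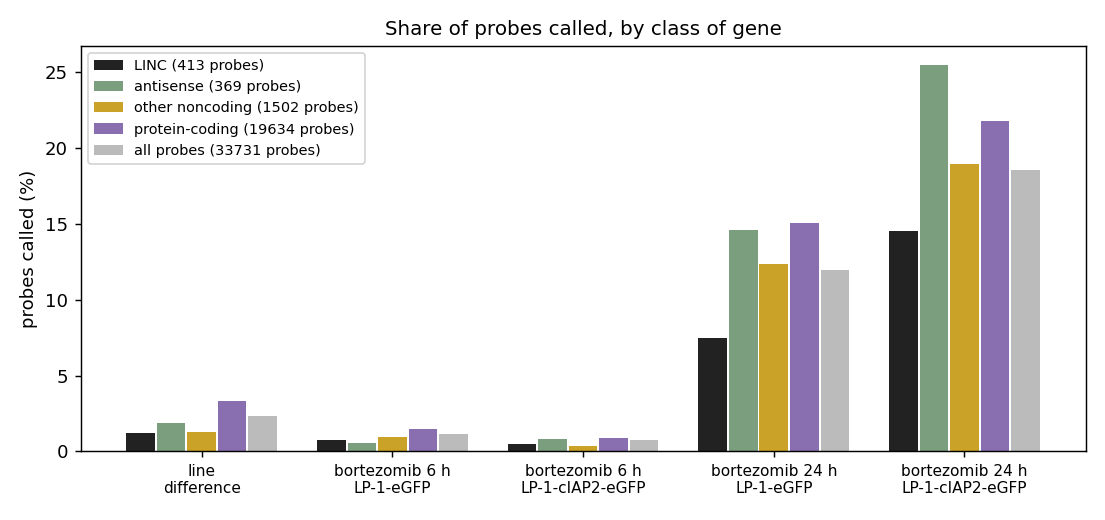
Percentage of probes called in each comparison, for LINC probes (413), antisense genes (369), other noncoding genes (1502), protein-coding genes (19634) and all probes tested (33731). At 24 h of bortezomib the LINC bars, 7.51% and 14.5%, are the lowest of the 5 classes drawn in both lines.

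Changes of LINC genes and of their nearest protein-coding genes showed little relation at 24 h. Over 191 pairs in which both were tested, the Pearson correlation of their changes was 0.25 for the line difference, -0.04 for bortezomib at 24 h in the control and -0.01 in LP-1-cIAP2-eGFP. In the control both members of 4 pairs were called at 24 h, out of 15 called LINC genes, with 2 of the 4 in the same direction, and 28 of the 191 neighbours were called. In LP-1-cIAP2-eGFP it was 10 of 29, with 7 in the same direction, and 48 of the 191 neighbours were called. GADD45G, next to LINC03062, was lower in LP-1-cIAP2-eGFP by -1.13 ± 0.16 (adjusted p = 0.000899), and rose with bortezomib at 24 h by 1.84 ± 0.31 (adjusted p = 0.00242) and 3.53 ± 0.31 (adjusted p = 5.18e-05), where LINC03062 fell. ARID2 fell with LINC00938, by -1.05 (adjusted p = 0.00869) and -1.45 (adjusted p = 0.00122). HES6, a helix-loop-helix regulator next to LINC02610, fell at 24 h by -2.45 and -2.24 in the 2 lines. ETV6, a transcriptional repressor next to LINC01252, fell by -1.50 and -2.68, where LINC01252 rose in the control. These neighbours are examples, and values for KMT2C, ZFP62, CCNL1 and VEGFA, named above, are not given here.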

How the data were processed

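Total RNA of 16 samples of LP-1 cells was measured on 1-colour arrays, and samples were grouped by the line, treatment and time in the labels. The authors deposited scanner files with the background-subtracted Cy3 intensity of each spot, and a table of log2 values that they had quantile normalized. The authors' table was used only as an alternative. No column remained unmatched to a sample (0).

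From the deposited intensities, spots of a probe were averaged, log2 values were quantile normalized, and limma 3.58.1 in R 4.3.3 was fitted to the 8 condition means with moderated errors (prior df 1.61) over 33731 probes, those that the scanner software marked in 1 condition or more, on both of its arrays, as well above background. P-values were adjusted by Benjamini-Hochberg over all of them. A line call needed a difference over 2-fold in untreated cells with an adjusted p under 0.001, a bortezomib call a change over 2-fold with an adjusted p under 0.05, and a difference of responses an adjusted p under 0.05. The residual spread is 1 value per probe, pooled over the differences between the 2 biological replicates of all 8 conditions. The replicates of treated LP-1-cIAP2-eGFP cells at 24 h differed more (SD 1.48) than those of the other conditions (0.495 to 0.773). Errors and p-values for that condition therefore do not reflect its own wider spread, and those of the other conditions include it. The steps were tested on simulated data.

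Scanner accessions were named through RefSeq (GRCh38.p14), which matched 28174 gene probes (55.7%) to 20503 symbols. Members, lists and motifs were chosen with earlier results of these data known. The brightest probe of a gene was named: the largest called changes of each comparison, the largest differences of response, the 6 brightest members, members beside the detection limit and the nearest protein-coding genes. Tables used Python 3.11.15 with pandas 2.3.3, numpy 2.4.6 and matplotlib 3.10.9. Alternatives were scaling to the 75th percentile, normexp with an offset of 50, the authors' table, other filters, blocks for replicate and slide, array weights, averaged probes, older symbols and leaving out each array. Arrays came from 2 slides, and both LP-1-cIAP2-eGFP arrays with bortezomib at 24 h lay on slide 1. One marker gene is not reported here.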

Additional observations from a re-analysis of the deposited data

How the results depend on the processing

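Of 289 recomputed counts of called members, 220 stayed within 1.5 times the reported count and 69 did not. Of 1192 recomputed values of named genes, 125 lost their call and 8 gained one. No called value changed sign, and 4 values that were not called did. Shares of all probes are not given beside the counts in this section, so these counts are not read as a result about the members.

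Among members well above background on all 16 arrays, 1 was called between the lines, 14 and 20 with bortezomib at 24 h in the control and LP-1-cIAP2-eGFP, and 1, 2, 0 and 6 between the lines in untreated cells at 6 h and 24 h and treated cells at 6 h and 24 h; fewer probes were tested. With probes of a gene averaged the counts were 3 between the lines, 1 at 6 h in LP-1-cIAP2-eGFP, 19 and 36 at 24 h, and 3 and 7 between untreated and treated lines at 24 h. A fit of 2 groups at an unadjusted p under 0.005 called 9 between the lines. Array weights gave 16 and 11 at 6 h, 17 at 24 h in LP-1-cIAP2-eGFP, and 22, 17 and 0 between the lines untreated at 6 h, treated at 6 h and treated at 24 h. Normexp gave 1 at 6 h in LP-1-cIAP2-eGFP and 20 and 35 at 24 h, scaling to the 75th percentile gave 1 at 6 h in LP-1-cIAP2-eGFP, and without a filter 0 were called there and 1 difference of responses at 24 h. The slide block gave 1 and 1 at 6 h and 1 between treated lines at 6 h. With older symbols the counts were 5 at 6 h in the control and 50 and 121 at 24 h. The causes were not tested.

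Leaving out each array in turn, counts ranged from 4 to 7 between the lines, 0 to 6 and 0 to 10 at 6 h, 16 to 44 and 34 to 173 at 24 h, 0 to 0 and 0 to 120 for differences of response at 6 h and 24 h, and 2 to 12, 3 to 10, 1 to 11 and 3 to 155 between the lines in untreated cells at 6 h and 24 h and treated cells at 6 h and 24 h.

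The deviations of same-numbered replicates correlated between -0.11 and 0.24 over 28 pairs of conditions (median 0.04), so the numbers were not taken to pair samples. With the replicate block 5 members were called between the lines, 5 and 4 at 6 h, 30 and 63 at 24 h and 5 between treated lines at 6 h.

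Signal over background limits the comparisons of dim probes, most of all with bortezomib at 24 h in LP-1-cIAP2-eGFP, where 1 of 2 arrays was weak.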

Other observations

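Genes that once carried a LINC symbol and now have another name added 248 probes of 107 genes by the same detection rule. At 24 h of bortezomib 13 of these probes were called higher and 6 lower in the control. These are 5.24% and 2.42%, against 5.31% and 6.67% of all probes. In LP-1-cIAP2-eGFP 30 were higher and 31 lower, or 12.1% and 12.5%, against 6.42% and 12.2% of all probes.

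Some members had 1 array far above the others. A probe of LINC00996 read 15.08 on the log2 scale on 1 array of treated LP-1-cIAP2-eGFP cells (6 h), and LINC00941 read 13.21 on 1 such array at 24 h and from 8.77 to 9.36 on the others. A probe of LINC00963 read 14.10 on the weak array and from 9.48 to 10.37 elsewhere.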
